A study of Homo sapiens with 6 samples.

Results

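The zinc finger genes described here are the 237 genes of human chromosome 19 whose symbol is ZNF followed by a number, out of 24175 genes with a value in the assemblies. They were chosen by name and position alone, from the 235 merged loci of chromosome 19 that carry such a symbol. The study asked how RNAs differ after a short heat shock. HEK293, an established human embryonic kidney cell line, was grown at 37°C as the untreated control, and for the heat shock an aliquot taken while passaging was held for 30 minutes in a bath at 45°C. The profiles are described as those of 30 minutes after the heat shock. Each group holds 3 libraries of ribosome-depleted total RNA, and p-values measure the spread between them. Where 3 values of a group follow each other, they stand in the order of replicates 1, 2 and 3. Of 7 genes that mark HEK293 cells (PAX2, LHX1, NEFL, NEFM, VIM, KRT8 and KRT18), 6 had a mean of at least 1 FPKM. Of the markers of other tissues, ALB of liver had at most 0.0808 FPKM, ACTC1 of muscle at most 0.124 FPKM, EPCAM of epithelium at most 0.763 FPKM and PECAM1 of vessels at most 0.883 FPKM in any library, while APOA1 of liver had 0.398 to 2.02 FPKM and COL1A1 of connective tissue 3.23 to 4.16 FPKM. FPKM is the number of fragments scaled to transcript length and to the mapped fragments of the library.

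Zinc finger proteins of this kind bind DNA through a row of C2H2 fingers, short folds in which paired cysteines and histidines hold a zinc ion, joined by a conserved linker. Most of their genes on chromosome 19 stand in tandem clusters that grew by duplication. Many of the proteins begin with a KRAB domain, which recruits the corepressor TRIM28 and through it the histone methyltransferase SETDB1 and heterochromatin proteins such as CBX5, and many of these silence retrotransposons.

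The shared build of these genes is visible in their coding sequence. The stretches below span 1 finger repeat of 28 residues in 4 of the genes and were chosen to show how near the copies stand to each other, which bears on how reads are assigned to them. Capitals mark the linker codons on either side of the finger. They are read 5′ to 3′ in the direction of the gene from hg19, from the plus strand at chr19:20044350-20044448 (ZNF93) and chr19:36727625-36727723 (ZNF146) and from the minus strand at chr19:23544818-23544916 (ZNF91) and chr19:9677192-9677290 (ZNF121), all within coding exons.
ZNF91: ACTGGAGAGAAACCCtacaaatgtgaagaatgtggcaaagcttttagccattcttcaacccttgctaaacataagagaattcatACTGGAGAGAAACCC
ZNF93: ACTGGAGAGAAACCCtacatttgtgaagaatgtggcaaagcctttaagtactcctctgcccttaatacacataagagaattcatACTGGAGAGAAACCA
ZNF121: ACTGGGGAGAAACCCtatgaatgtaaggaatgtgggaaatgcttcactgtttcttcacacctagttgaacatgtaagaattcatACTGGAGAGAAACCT
ZNF146: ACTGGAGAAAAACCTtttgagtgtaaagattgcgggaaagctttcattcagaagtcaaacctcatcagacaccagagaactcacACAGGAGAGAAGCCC
Over these 99 bases, ZNF93 was identical to ZNF91 at 85.9% of positions, ZNF121 at 76.8% and ZNF146 at 70.7%.

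A complete coding sequence was read for 232 of the 237 genes. They coded between 1 and 39 fingers with a median of 12, and 196 of them held a match to the KRAB domain in some isoform while 36 did not. The median was 13 fingers with a KRAB match and 9.5 without. ZNF91, which represses SVA retrotransposons, coded 32 fingers, and ZNF428 coded 1. Exact stretches of 50 bases in common with another gene of the group were found in the annotated transcript of 137 genes, but for only 16 genes did they make up more than 10% of the transcript. Of these 16 genes, whose values cannot be assigned with certainty to 1 copy, 4 reached the level at which genes were tested. The 300 bases around the transcription start, available from RefSeq (GRCh38.p14) for 204 of the genes, held a median of 60.2% G and C and 20 CpG dinucleotides, against 58.7% and 14 over all promoters of the table.

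As a group these genes were expressed at low levels. The median over the 237 genes of the mean over 6 libraries was 0.764 FPKM, and the middle of the group lay between 0.368 and 1.36 FPKM (lower and upper quartile). A mean of at least 1 FPKM, the level from which genes were tested, was reached by 88 genes (37.1%, against 53.9% of all genes), a mean of at least 5 FPKM by 9 genes, and a mean of over 10 FPKM by 4. Values above 0 in every library were listed for 208 genes. ZNF224, a KRAB protein known as a repressor of the aldolase A gene, was listed at 0 in all 6 libraries. The median place of the genes among all genes of a library was at the percentile 42.0, 44.3 and 44.7 in the controls and at 50.4, 47.8 and 43.5 after heat shock. The level went with the KRAB domain and only weakly with the number of fingers. The median of the mean level was 0.635 FPKM for genes with a KRAB match and 2.18 FPKM for genes without, and 59 of 196 (30.1%) against 28 of 36 (77.8%) reached 1 FPKM. Spearman's rho between fingers and mean level was -0.19 across the 232 genes and -0.07 across the 196 with a KRAB match, as a description across genes that share libraries and sequence. Of the 10 genes with the highest mean, 9 had no KRAB match, the exception being ZNF333.

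**Figure D1:**
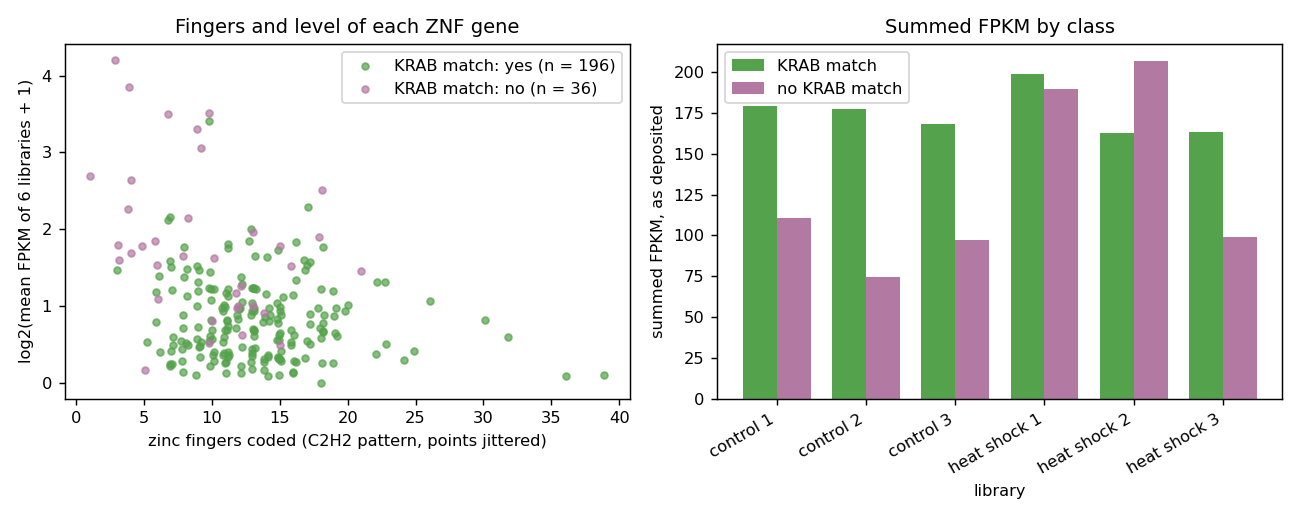
Left, log2(mean FPKM + 1) of each gene against the number of C2H2 fingers it codes, with points jittered sideways and coloured by the KRAB match (196 with, 36 without); the genes with the highest levels lack a KRAB match. Right, summed FPKM of both classes in each library as deposited; the KRAB class spans 163 to 199 FPKM over all 6 libraries, while the other class spans 74.6 to 207 FPKM and is highest in heat shock replicates 1 and 2.

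The libraries stood apart in ways that touch every comparison below. The relative depth spanned 1 to 2.03, and transcripts with no strand assigned numbered 45600 to 194489 in the controls and 17304 to 151889 after heat shock. A common factor per library, the median ratio to the other libraries of the 983 genes that exceed 10 FPKM everywhere, was 0.938, 0.434 and 0.957 in the controls against 2.13, 2.32 and 0.487 after heat shock. Heat shock replicate 3 was nearer to control replicate 2 (Spearman's rho of 0.73 across genes) than to heat shock replicates 1 and 2 (0.51 and 0.53). Whether the labels of these libraries were exchanged was not tested and cannot be told from the labels, and an exchange would change every group value below. Values are given below as deposited and, where the text says so, divided by the common factor. The part of depth in the results was not tested, and that of unstranded transcripts only by a term in an alternative fit.

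The summed level of the 237 genes was 294, 257 and 271 FPKM in the controls and 396, 373 and 265 FPKM after heat shock. It was thus higher in 2 of the 3 heat shock libraries than in any control, and the third lay within the control range. The mean was 274 ± 18.4 FPKM (SD, n = 3) in the controls and 345 ± 70.0 FPKM (SD, n = 3) after heat shock. With 3 libraries against 3, an exact permutation test cannot give a p below 0.1. In the genes with a KRAB match the sum was 179, 177 and 168 FPKM in the controls and 199, 163 and 163 FPKM after heat shock, a mean of 175 FPKM in both groups. In the genes without, it was 111, 74.6 and 97.2 FPKM in the controls and 190, 207 and 98.9 FPKM after heat shock. As deposited, the higher sums of heat shock replicates 1 and 2 were thus found mostly in the 36 genes without the KRAB match. These genes were also higher in level, with a median of 2.18 FPKM against 0.635 FPKM, and the part of the level was not tested. Divided by the common factor, the sums with a KRAB match were 191, 408 and 176 in the controls against 93.4, 70.3 and 335 after heat shock, and those without were 118, 172 and 102 against 89.0, 89.4 and 203. On that scale heat shock replicates 1 and 2 lay below all controls in both classes and replicate 3 lay within the control range with a KRAB match and above it without. In the annotated transcripts alone, the scaled sums with a KRAB match were 64.4, 93.7 and 80.1 in the controls against 49.9, 53.0 and 101 after heat shock. Those without a KRAB match were 56.4, 42.5 and 58.0 in the controls against 56.7, 60.7 and 37.0 after heat shock. In that class heat shock replicate 2 was thus the highest library and replicate 3 the lowest.

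These sums hold 2 kinds of transcript: those of the hg19 annotation that Cufflinks was given, and those that it assembled from the reads of that library. Assembled transcripts made up 61.2%, 76.7% and 50.9% of the summed level in the controls against 42.3%, 28.6% and 74.3% after heat shock. Over all genes this share was 18.5% to 41.6%. Beside genes of a like level the share was near that of all genes, except at 5 FPKM or more. It was 42.8% for the ZNF genes and 41.1% for all genes under 1 FPKM on average, and 63.8% and 63.1% at 1 to 5 FPKM. At 5 FPKM or more it was 45.2% and 24.3%. The annotated transcripts alone summed to 114, 59.9 and 133 FPKM in the controls and to 228, 267 and 68.1 FPKM after heat shock. Scaled by the common factor, the same sums were 121, 138 and 139 in the controls against 107, 115 and 140 after heat shock (132.8 ± 9.80 and 120.8 ± 17.1, SD, n = 3). On that scale the groups overlapped and the largest sum was 1.31 times the smallest. With assembled transcripts included, the scaled sums were 313, 593 and 283 in the controls against 186, 161 and 545 after heat shock, and control replicate 2 and heat shock replicate 3 were the highest.

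**Figure D2:**
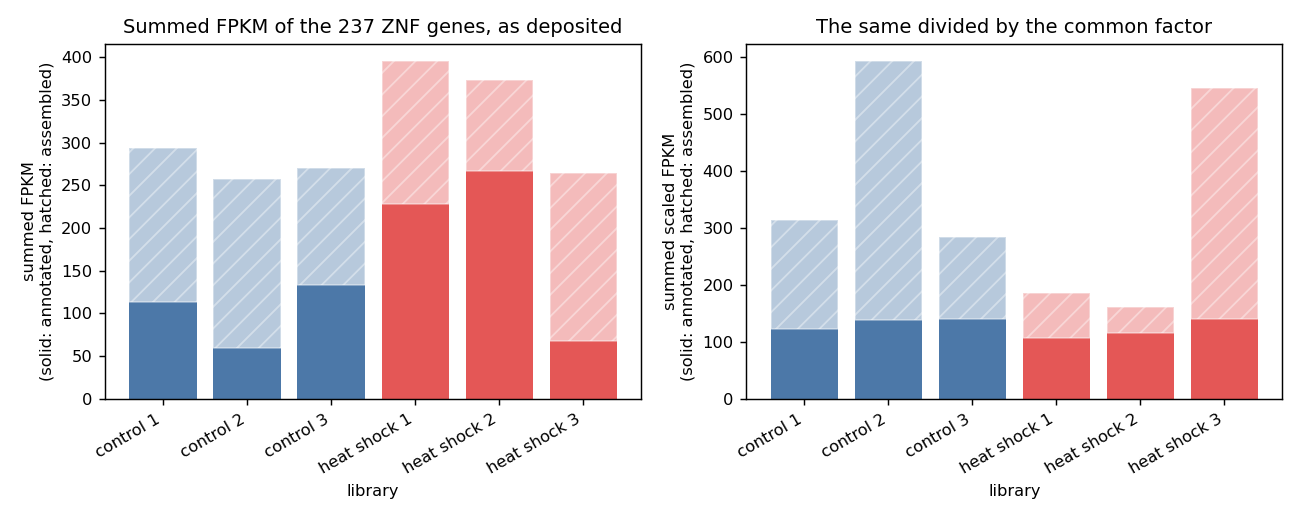
Summed FPKM of the 237 genes in each library (controls blue, heat shock red), as deposited on the left and divided by the common factor on the right; solid bars are annotated transcripts and hatched bars the transcripts assembled in that library. The solid bars on the right span 107 to 140 in the 6 libraries, while the hatched part is largest in control replicate 2 and heat shock replicate 3.

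Gene by gene, no ZNF gene of chromosome 19 passed the test. Of the 88 tested, 0 were called (adjusted p under 0.05 and over 2-fold in limma on log2(FPKM + 1), Benjamini-Hochberg adjustment over 13032 genes), where 0.023% of all tested genes were called. At an unadjusted p under 0.05, 1 gene was higher (ZNF121) and 1 lower (ZNF347), against 2.07% and 1.63% of all tested genes. All 3 heat shock libraries lay above all 3 controls in 9 genes (10.2%, against 3.7% of all tested genes) and below them in 1 (1.14%, against 2.26%). The median log2 fold change was 0.19 over the 88 genes and 0.45 over all tested genes, and 57 of the 88 were above 0. The 7808 tested genes with a mean of 1 to 5 FPKM, the range of 79 of the 88, had a median of 0.19, and the 157 tested ZNF genes of other chromosomes had 0.37. The other 974 tested genes of chromosome 19 had a median of 0.18. The ZNF genes with a KRAB match had a median of 0.13 (59 tested) and those without, which were higher in level, had 0.45 (28 tested). With a minimum of 5 FPKM, the 8 tested genes without a match had a median of 0.77, against 0.75 over all 5224 genes tested there.

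With all values divided by the common factor, the median of all tested genes moved from 0.45 to -0.21 and that of the 88 ZNF genes from 0.19 to -0.31, with 17 of the 88 above 0. The genes of 1 to 5 FPKM had a median of -0.36 on this scale and the other genes of chromosome 19 one of -0.42, both lower than that of the ZNF genes. On this scale an unadjusted p under 0.05 was reached by 0 genes in the upward and 2 in the downward direction (ZNF333 and ZNF347), against 0.729% and 2.49% of all tested genes, and none passed after adjustment. The groups did not overlap in 0 genes in the upward direction (2.0% of all tested genes) and in 4 in the downward direction (4.55%, against 5.37%). The 9 genes that lay above all controls as deposited therefore did not do so after scaling. The size of these counts rests on heat shock replicate 3. Without it, that unadjusted level was passed as deposited by 13 genes upward and 8 downward, against 39.6% and 9.36% of all tested genes, and with the common factor 0 did upward and 18 downward, against 1.13% and 20.9%. All remaining heat shock libraries lay above all controls in 35 genes as deposited (39.8%, against 55.6% of all tested genes) and below in 15 (17.0%, against 14.3%), and with the common factor above in 1 (1.14%, against 4.29%) and below in 60 (68.2%, against 41.9%). The median without that library was 0.31 as deposited (0.83 over all tested genes) and -0.64 with the common factor (-0.37 over all tested genes). The genes of 1 to 5 FPKM had 0.37 and -0.66 without it. Of those genes, 40.6% then lay above all controls and 23.5% below as deposited, and 2.07% above and 55.4% below with the common factor.

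**Figure D3:**
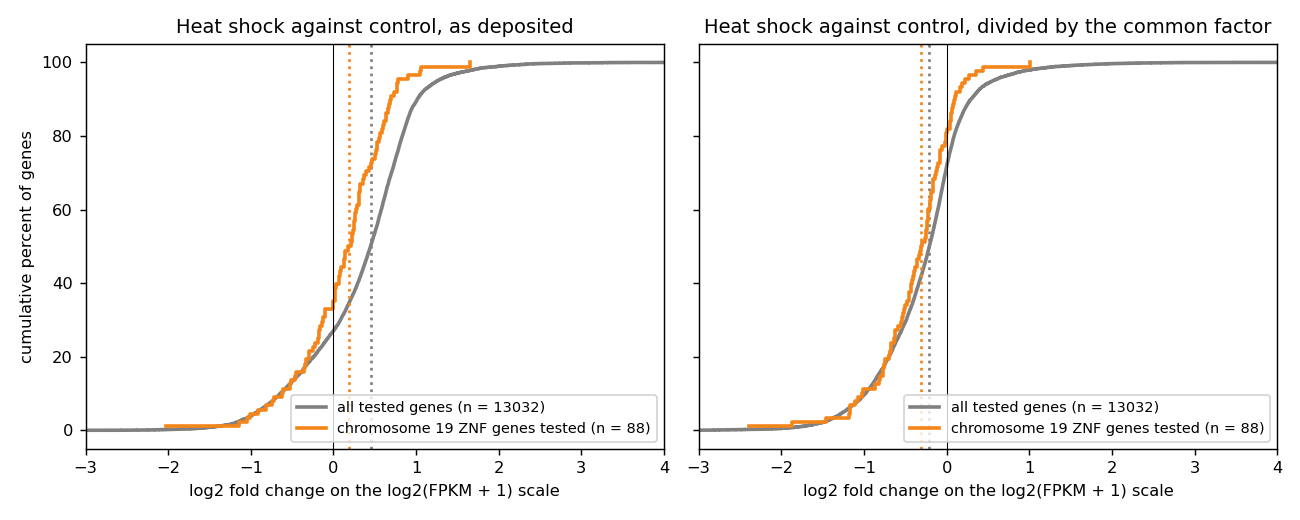
Cumulative percent of genes against the log2 fold change of heat shock over control for the 88 tested ZNF genes of chromosome 19 and all 13032 tested genes, as deposited on the left and divided by the common factor on the right; dotted lines mark the medians. The ZNF genes lie to the left of all genes on both scales, with medians of 0.19 against 0.45 and of -0.31 against -0.21, while the tested genes of 1 to 5 FPKM, which are not drawn, have medians of 0.19 and -0.36.

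Of the 10 most abundant ZNF genes, most moved with the common factor of the library. ZNF580, a short protein of 3 fingers whose gene shares a merged locus with ZNF581 and other genes, had the highest mean level, with 13.1, 6.44 and 10.7 FPKM in the controls and 35.3, 35.1 and 3.75 FPKM after heat shock. Heat shock replicates 1 and 2 lay above all controls and replicate 3 below all of them, and the log2 fold change was 0.78 (SE 0.88, adjusted p = 0.71 from limma). Divided by the common factor its 6 values were 14, 14.8, 11.2, 16.5, 15.1 and 7.70, and the log2 fold change was -0.08 with a 95% interval of -0.84 to 0.68.

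ZNF444, which carries a SCAN domain and 4 fingers, had 8.68, 4.82 and 9.33 FPKM in the controls and 22.1, 31.4 and 4.04 FPKM after heat shock. ZNF146, which consists almost only of its 10 fingers, had 8.47, 3.58 and 8.90 FPKM in the controls and 18.5, 19.8 and 3.53 FPKM after heat shock. ZNF787, with 7 fingers, had 8.28, 3.90 and 9.31 FPKM in the controls and 17.6, 18.6 and 4.07 FPKM after heat shock. In all 3 genes heat shock replicates 1 and 2 lay above all controls. Heat shock replicate 3 lay below all controls in ZNF444 and ZNF146 and within the control range in ZNF787. After division by the common factor, ZNF146 lay between 7.25 and 9.30 in all 6 libraries and ZNF787 between 8.04 and 9.73, so that the highest library was 1.28 and 1.21 times the lowest, where it had been 5.61 and 4.77 times as deposited. The scaled log2 fold change was -0.11 for ZNF146 (95% interval -0.52 to 0.30) and 0.07 for ZNF444 (-0.47 to 0.60). For ZNF787 the 3 scaled heat shock values lay just below all controls, with a log2 fold change of -0.14 (-0.52 to 0.24, adjusted p = 0.913 from limma).

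ZNF358, with 9 fingers, had 6.92, 2.31 and 5.48 FPKM in the controls and 12.9, 14.7 and 1.63 FPKM after heat shock. ZNF428 had 4.85, 2.04 and 3.89 FPKM in the controls and 10.1, 9.28 and 2.80 FPKM after heat shock. In both, heat shock replicates 1 and 2 lay above all controls, while replicate 3 lay below them in ZNF358 and within their range in ZNF428. Their scaled log2 fold changes were -0.22 (95% interval -0.92 to 0.48) and 0.04 (-0.51 to 0.59). ZNF581 had 5.80 and 1.74 FPKM in control replicates 1 and 2, had 10.8 and 13.1 FPKM in those of heat shock, and was listed at 0 in replicate 3 of both groups. ZNF574, with 18 fingers, had 5.67, 3.81 and 3.32 FPKM in the controls and 5.56, 5.19 and 4.54 FPKM after heat shock. Its groups overlapped, and it spanned 1.71 times from lowest to highest as deposited and 4.16 times after scaling.

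**Figure D4:**
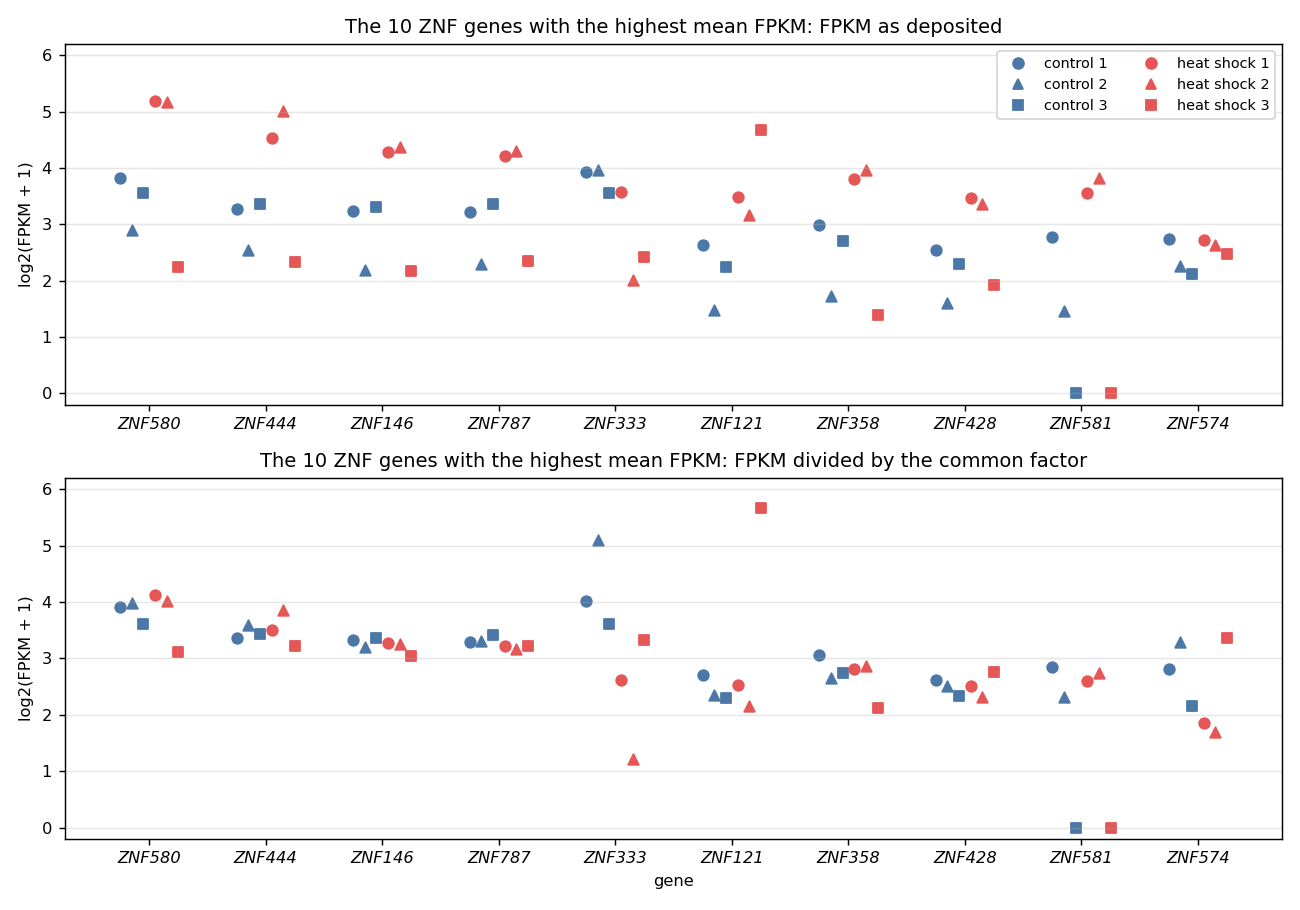
The 10 ZNF genes with the highest mean level, as log2(FPKM + 1) in each library (controls blue, heat shock red; circle, triangle and square are replicates 1, 2 and 3), as deposited above and divided by the common factor below. Scaling draws the libraries of ZNF146, ZNF787 and ZNF428 together, and leaves ZNF333 spread and ZNF121 apart in heat shock replicate 3.

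In 58 of the 88 tested genes the transcript with the highest level in any library was an assembled one. Among the abundant genes, the 22.1 and 31.4 FPKM of ZNF444 in heat shock replicates 1 and 2 came from 1 assembled transcript each, with its annotated transcripts listed at 0. ZNF121, whose protein interacts with MYC, was the one gene higher at an unadjusted p under 0.05. It had 5.18, 1.77 and 3.74 FPKM in the controls and 10.1, 8.0 and 24.4 FPKM after heat shock, with a log2 fold change of 1.66 (SE 0.64, unadjusted p = 0.0232, adjusted p = 0.71 from limma). All heat shock libraries lay above all controls. In heat shock replicate 3, 22.8 of the 24.4 FPKM came from 1 assembled transcript of 211 bases (95% interval of Cufflinks 9.28 to 36.4 FPKM), and its annotated transcripts had 1.55 FPKM there. The annotated transcripts of ZNF121 alone had 5.18, 1.28 and 3.74 FPKM in the controls and 8.19, 8.0 and 1.55 FPKM after heat shock, and the groups overlapped.

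ZNF347, a KRAB protein of 17 fingers named here after its values were seen, was the one gene lower at an unadjusted p under 0.05 as deposited. It had 0.719, 7.06 and 14.1 FPKM in the controls and 0.403, 0.266 and 0.729 FPKM after heat shock, with a log2 fold change of -2.03 (SE 0.68, unadjusted p = 0.0104, adjusted p = 0.71 from limma). The groups overlapped, since control replicate 1 lay below heat shock replicate 3. In control replicates 2 and 3, 6.63 and 13.8 FPKM came from a single assembled transcript of 1 exon, of 722 and 470 bases, and the annotated transcripts of ZNF347 had 0.266 to 0.729 FPKM in all 6 libraries.

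ZNF333, which carries a pair of KRAB domains and 10 fingers, was the most abundant gene with a KRAB match. It had 14.2, 14.6 and 10.8 FPKM in the controls and 10.9, 3.03 and 4.38 FPKM after heat shock, a mean of 13.2 ± 2.10 against 6.10 ± 4.2 FPKM (SD, n = 3). The log2 fold change was -1.14 as deposited (SE 0.66, unadjusted p = 0.105) and -1.87 with the common factor (SE 0.65, unadjusted p = 0.0292, adjusted p = 0.913 from limma), and on the scaled values the groups did not overlap. In 5 libraries, all but heat shock replicate 2, most of its level came from 1 assembled transcript of 305 to 936 bases, and its annotated transcripts had 0.378 to 0.805 FPKM. In heat shock replicate 2 no such transcript was assembled and the annotated transcripts had 3.03 FPKM. When each transcript was weighted by its length, the log2 fold change of ZNF333 as deposited was 0.12.

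The other genes whose heat shock libraries all lay above the controls were low. ZNF304, a KRAB protein that recruits TRIM28 complexes to silence genes, had 1.20, 0.493 and 1.07 FPKM in the controls and 1.95, 1.41 and 2.96 FPKM after heat shock (log2 fold change 0.68, SE 0.46). ZNF497, with 15 fingers and no KRAB match, had 1.98, 1.13 and 2.13 FPKM in the controls and 2.65, 3.02 and 3.71 FPKM after heat shock (0.60, SE 0.44). The smallest differences among the 6 named were those of ZNF627 (0.45, SE 0.45) and ZNF260 (0.40, SE 0.47), a gene without a KRAB match known from heart development. ZNF324 was listed at 0 in control replicate 1 and had 1.45 to 2.05 FPKM in the other libraries. The remaining genes of the 9 (ZNF8, ZNF557 and ZNF586, named after their values were seen) had log2 fold changes between 0.14 and 0.32. After division by the common factor, ZNF304, ZNF497 and ZNF627 were lower in heat shock replicates 1 and 2 than in any control and higher in replicate 3 than in any control.

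The gene below all controls as deposited was ZNF584, a KRAB protein of 8 fingers, with 2.29, 3.19 and 1.72 FPKM in the controls and 1.11, 0.964 and 1.48 FPKM after heat shock (log2 fold change -0.62, SE 0.44, adjusted p = 0.71 from limma). On the scaled values its groups overlapped. Its annotated transcripts alone had 0, 0 and 0.293 FPKM in the controls and 0, 0.964 and 0.331 FPKM after heat shock, so the decrease lay in assembled transcripts. The genes below all controls on the scaled values, beside ZNF333 and ZNF787, were ZNF57 and ZNF226. ZNF57, with 13 fingers, had scaled values of 3.20, 8.82 and 2.24 in the controls against 1.08, 1.43 and 2.13 after heat shock (log2 fold change -1.03, SE 0.48, adjusted p = 0.913 from limma). Its annotated transcripts alone went the other way. As deposited they had 0, 0 and 0.330 FPKM in the controls and 0.900, 1.11 and 1.04 FPKM after heat shock, above all controls. ZNF226, with 17 fingers, had scaled values of 1.94, 2.45 and 2.21 in the controls against 1.85, 1.14 and 1.18 after heat shock (-0.43, SE 0.26, the same adjusted p). As deposited and with assembled transcripts included, the groups overlapped in both ZNF57 and ZNF226.

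The genes with known targets stayed mostly under the level of testing. ZNF91 had 0.457, 0.332 and 0.381 FPKM in the controls and 1.02, 0.561 and 0.307 FPKM after heat shock, and ZNF93, which represses LINE-1 elements, had at most 0.213 FPKM in any library. ZNF382, a KRAB protein silenced by methylation in tumours, had 0.372 to 0.573 FPKM in the controls and 0.239 to 0.555 FPKM after heat shock. ZNF331, an imprinted gene, had 1.39, 1.63 and 0.506 FPKM in the controls and 0.170, 0.227 and 0.734 FPKM after heat shock. In these 4 genes the groups overlapped. ZNF274, which binds other zinc finger genes and recruits SETDB1 there, was tested, with 2.89, 3.12 and 4.59 FPKM in the controls and 6.80, 3.47 and 1.75 FPKM after heat shock. Its groups overlapped, and its log2 fold change was 0.03 as deposited (SE 0.53, 95% interval -1.11 to 1.17) and -0.67 with the common factor (-1.63 to 0.29).

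Of a fixed list of 26 genes of the KRAB silencing pathway and of heterochromatin, all were tested and 0 passed the test as deposited or with the common factor. Their median log2 fold change was 0.59 as deposited (0.45 over all tested genes) and -0.15 with the common factor (-0.21 over all). As deposited 24 of 26 (92.3%) were above 0, against 73.0% of all tested genes, and with the common factor 12 of 26 (46.2%) were, against 28.2%. Beside genes of a like level the share as deposited was near that of all genes. With a minimum of 5 FPKM, 17 of 18 (94.4%) were above 0, against 92.5% of the 5224 genes tested there. The medians were 0.88 and 0.75. At an unadjusted p under 0.05, 3 were higher as deposited (MTA2, EHMT1 and EHMT2), against 2.07% of all tested genes, and 2 lower with the common factor (HDAC1 and UHRF1), against 2.49%. TRIM28 had 49.2, 6.73 and 18.8 FPKM in the controls and 37.4, 34.7 and 7.56 FPKM after heat shock (log2 fold change 0.20, SE 0.94). SETDB1 had 3.37, 1.51 and 21.8 FPKM in the controls and 22.1, 24.4 and 3.91 FPKM after heat shock (1.17, SE 0.91). CBX5 had 1.28, 1.77 and 4.23 FPKM in the controls and 7.70, 7.95 and 1.09 FPKM after heat shock (0.77, SE 0.63). The adjusted p of these 3 was 0.71 or more (limma), and in each the lowest heat shock library was replicate 3, which lay within the control range for TRIM28 and SETDB1 and below it for CBX5.

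Position along the chromosome was not used to choose the genes beyond the chromosome itself. Joining neighbours less than 500 kb apart gave 19 groups, of which 7 held at least 5 tested genes. The groups differed in level and in the KRAB share. The group at 56.0 to 57.2 Mb (ZNF628 to ZNF835, 17 genes of which 6 had a KRAB match) had a median level of 1.74 FPKM and summed to 49.9, 29.7 and 46.0 FPKM in the controls and 104, 121 and 24.5 FPKM after heat shock, with a median log2 fold change of 0.59 over 10 tested genes. Divided by the common factor, its sums were 53.3, 68.3 and 48.1 in the controls against 48.7, 52.3 and 50.4 after heat shock. The neighbouring group at 57.7 to 59.0 Mb (ZNF264 to ZNF446, 41 genes of which 35 had a KRAB match) summed to 53.2, 54.4 and 46.5 FPKM in the controls and 48.3, 43.0 and 66.7 FPKM after heat shock, with a median log2 fold change of 0.02 over 24 tested genes. Its scaled sums were 56.8, 125 and 48.6 in the controls against 22.7, 18.6 and 137 after heat shock, and with the common factor the median was -0.35 and 21 of the 24 were below 0. As deposited, 5 of the 24 lay above all controls and 1 below, against 3.7% and 2.26% of all tested genes. These were 5 of the 9 ZNF genes above all controls and the 1 below. With the common factor 0 of the 24 lay above and 0 below, against 2.0% and 5.37% of all tested genes.

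At the other end of the chromosome, the group at 2.8 to 3.0 Mb (ZNF554 to ZNF57, 5 genes, all with a KRAB match and all tested) had the lowest median log2 fold change of the 7, -0.35 as deposited and -0.81 with the common factor. Its sums were 14, 14.1 and 13.4 FPKM in the controls and 6.56, 7.22 and 16.7 FPKM after heat shock, so that heat shock replicates 1 and 2 lay below all controls and replicate 3 above them. In its annotated transcripts alone, the scaled sums were 0.532, 1.03 and 1.72 in the controls against 1.41, 1.77 and 2.13 after heat shock. The large group at 19.8 to 24.3 Mb that holds ZNF91 and ZNF93 (33 genes, 31 with a KRAB match) had only 3 tested genes and summed to 19, 15.3 and 15.3 FPKM in the controls and 24.2, 23.1 and 16.8 FPKM after heat shock. The group at 52.1 to 54.1 Mb (38 genes, all with a KRAB match) had a median of 0.02 over 11 tested genes as deposited and of -0.45 with the common factor. The groups were not tested against each other.

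**Figure D5:**
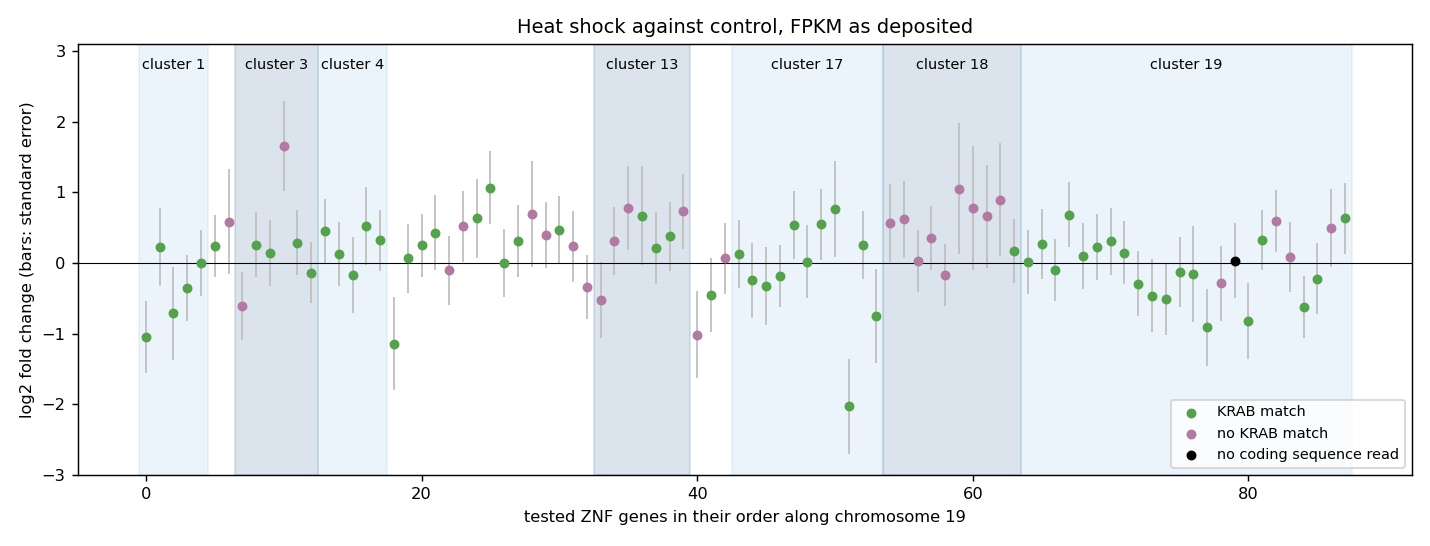
Log2 fold change of heat shock over control as deposited, with its standard error, for the 88 tested ZNF genes in their order along chromosome 19, coloured by the KRAB match; shaded bands are the 7 groups of neighbours with at least 5 tested genes. The 10 genes of cluster 18 have a median of 0.59 and the 24 of cluster 19 a median of 0.02.

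Transcripts of 1 exon with no strand that overlapped no annotated exon gave another readout at these loci. Inside the 237 genes they numbered 257, 394 and 48 in the controls against 32, 48 and 266 after heat shock, again with control replicate 2 and heat shock replicate 3 among the highest. Their level times length was 50.6%, 70.7% and 18.0% of that of the genes' own transcripts in the controls against 14.2%, 21.1% and 55.8% after heat shock. Over all tested genes the same shares were 38.3%, 78.6% and 19.8% in the controls against 10.4%, 13.6% and 72.0% after heat shock. Within 10 kb after the genes, such transcripts numbered 202, 260 and 62 in the controls against 46, 68 and 215 after heat shock, and within 10 kb before them 238, 326 and 65 in the controls against 29, 41 and 254 after heat shock. The ratio of after to before was 0.849, 0.798 and 0.954 in the controls against 1.59, 1.66 and 0.846 after heat shock. Over all tested genes this ratio was 0.992, 0.924 and 0.970 in the controls against 1.51, 1.23 and 0.941 after heat shock. In both sets heat shock replicates 1 and 2 lay above all controls and heat shock replicate 3 lay within the control range, and with no strand these transcripts cannot be assigned to the gene or to its neighbour.

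The deposited table of the authors' comparison gives 1 pooled level per group and locus. In the 220 loci that hold a single one of these ZNF genes, 70 had a pooled control level of at least 1 FPKM. The pooled heat shock level was higher in 63 of the 70 (90%), with a median ratio of 2.62. Over the 11588 loci of 1 named gene at that level it was higher in 86.5%, with a median ratio of 3.67. For ZNF146 the authors' pooled values were 7.64 and 35.4 FPKM and for ZNF787 10.8 and 50.8 FPKM, while the single libraries of ZNF146 reached at most 19.8 FPKM and those of ZNF787 at most 18.6 FPKM. The pooled values are on a scale of their own and carry no spread between libraries.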

How the data were processed

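Total RNA of HEK293 cells, depleted of ribosomal RNA, was measured in 3 control and 3 heat shock libraries, grouped by their labels. Per the submitters' processing notes and the study's methods, the authors used Trimmomatic 0.3.0 for trimming, TopHat2 for alignment (hg19) and Cufflinks 2.0.2, guided by known genes, to assemble the libraries one by one. The deposited FPKM of each transcript, with its library-wide scaling by the authors, was summed over the annotated and assembled transcripts of a gene. Left out were assembled transcripts at loci whose annotated transcripts belong to several genes, 672 to 1517 per library. The level of a gene at such a locus may thus be too low. The deposited table holds the authors' pooled FPKM per group from cuffdiff and their fold changes, p-values and q-values, which were not used. Counts were not used here, so depth is known only as relative coverage, and zeros are transcripts listed at 0.

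The program limma 3.58.1 (R 4.3.3, eBayes with trend) was fitted on log2(FPKM + 1), which understates the change of low genes, where the mean reached 1 FPKM. The fit was also run on simulated data with noise drawn separately for each gene and only large changes. That run does not cover shifts of whole libraries or changes of the size reported here. The common factor is the median-of-ratios size factor over genes above 10 FPKM in all libraries. KRAB domains and fingers were found by pattern in coding sequences of GENCODE release 44 on GRCh37, whose chromosome 19 (59128983 bases) no transcript exceeded.

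Named genes were the 10 with the highest mean, up to 6 per direction with the smallest p among those whose groups do not overlap (as deposited and with the common factor), 8 with known roles, and TRIM28, SETDB1 and CBX5. The genes and lists were chosen with earlier results of these data known. Alternatives were other scalings, pseudocounts and minimums, no trend, annotated transcripts alone, the replicate number as a block, a term for unstranded transcripts and leaving out each library. The length-weighted values and annotated transcripts with the common factor were added after the data were seen. A marker on the list of other cell types is not reported here.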

Additional observations from a re-analysis of the deposited data

How the results depend on the processing

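The number of ZNF genes called was 0 under all 20 alternatives, and the lowest adjusted p of a named gene was 0.0793. Of 308 values of 22 named genes under alternatives that can move a fold change, 258 kept the direction of the report and 50 turned. The replicate block, the minimums and the fit without a trend cannot move it in this balanced design. The median log2 fold change of the 88 tested genes was 0.19 as deposited. It was -0.090 with median-of-ratios factors, -0.31 with the common factor, -0.26 with TPM and 0.11 with a term for unstranded transcripts. Other alternatives covered other sets of genes. The median was 0.029 over 236 genes with no minimum (0.10 over all genes tested there). With a minimum of 5 FPKM it was 0.77 over 9 genes (0.75 over all). With annotated transcripts alone it was 0.55 over 23 genes (0.69 over all). For the same 23 with the common factor it was 0.056 (0.016 over all). With length weights and the common factor it was -0.32 over 70 genes (-0.17 over all). Genes higher at an unadjusted p under 0.05 numbered 3 of 236 with no minimum (297 of all 21768 tested genes). They numbered 0 with median-of-ratios factors (250 of 13032), the common factor (95), TPM (146), annotated transcripts (252 of 7202) or length weights (125 of 12302). Genes lower numbered 2 with each of these 3 scalings (275, 324 and 240 of 13032) or no minimum (538 of 21768). They numbered 0 with a minimum of 5 FPKM (21 of 5224), annotated transcripts (36 of 7202) or length weights (195 of 12302). Genes above all controls are given beside the share of all genes tested in that setting. They numbered 1 of 88 with median-of-ratios factors (5.30%), 1 of 9 with a minimum of 5 FPKM (4.21%) and 1 of 23 with annotated transcripts and the common factor (4.61%). They numbered 15 of 236 with no minimum (3.07%) and 4 of 70 with length weights (1.94%). They numbered 0 with the common factor (2.0%), TPM (2.82%) or annotated transcripts alone (3.39%). Genes below all controls numbered 3 with median-of-ratios factors (2.57% of all tested genes), 4 with the common factor (5.37%) and 4 with no minimum (4.03%). They numbered 0 with a minimum of 5 FPKM (0.0957%), annotated transcripts (0.722%) or length weights (1.63%).

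Leaving out 1 library moved the median between 0.10 and 0.31, genes higher between 0 and 13, genes lower between 0 and 8, genes above all controls between 9 and 35 and genes below between 1 and 15. With the common factor the ranges were -0.64 to -0.12 for the median, 0 to 18 for genes lower, 0 to 1 for genes above and 4 to 60 for genes below. The highest counts of genes higher, lower, above or below came without heat shock replicate 3. Without it, 55.6% of all tested genes lay above and 14.3% below all controls as deposited, and 4.29% and 41.9% with the common factor. The shares of all tested genes higher and lower were 39.6% and 9.36% as deposited and 1.13% and 20.9% with the common factor. The cause was not tested.

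The deviations of same-numbered libraries from their group means had correlations of 0.03, -0.33 and -0.38 as deposited. That of control replicate 2 with heat shock replicate 3 was 0.44. With 3 libraries per group and such differences between whole libraries, these correlations cannot decide whether the numbers pair the cultures. With the replicate block an unadjusted p under 0.05 was reached by 0 genes in the upward and 1 in the downward direction. The median (0.19) and the overlap of groups cannot move under a block in this balanced design. With the block and the common factor these counts were 0 and 1, with 0 genes above and 4 below all controls, with a median of -0.31.

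The log2 fold changes that turned were, with the common factor and equally with the replicate block added, ZNF580 -0.078, ZNF146 -0.11, ZNF787 -0.14, ZNF358 -0.22, ZNF574 -0.45, ZNF260 -0.020, ZNF226 -0.43, ZNF274 -0.67 and TRIM28 -0.63. With annotated transcripts and the common factor they were ZNF580 -0.078, ZNF787 -0.47, ZNF121 -0.16, ZNF358 -0.15, ZNF226 -0.34, TRIM28 -0.60 and SETDB1 -0.17. With length weights and the common factor they were ZNF444 -0.034, ZNF146 -0.028, ZNF787 -0.090, ZNF358 -0.53, ZNF574 -0.39, ZNF497 -0.16, ZNF324 -0.046, ZNF627 -0.0096, ZNF226 -0.22, ZNF274 -0.42, TRIM28 -0.081 and SETDB1 -0.090. With TPM they were ZNF787 -0.029, ZNF358 -0.12, ZNF574 -0.37, ZNF226 -0.37, ZNF274 -0.59 and TRIM28 -0.52. With median-of-ratios factors they were ZNF574 -0.12, ZNF226 -0.13, ZNF274 -0.34 and TRIM28 -0.22. With the unstranded term they were ZNF226 -0.086, ZNF274 -0.23 and TRIM28 -0.15. Length weights turned ZNF333 to 0.12 and annotated transcripts alone turned ZNF358 to -0.019. Leaving out 1 library gave a range of -0.14 to 0.69 for ZNF226, of -0.35 to 0.40 for ZNF274 and of -0.47 to 0.91 for TRIM28, the highest value in each case without heat shock replicate 3.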
